A study of Homo sapiens with 4 samples.

Results

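The transcripts of 39 genes of fatty acid synthesis, oxidation and storage were followed in suspension cultures of human bone cancer cells treated with melatonin. These genes were taken by their symbols from the 61806 genes of the deposited table, and all 39 were found there. JJ012, an established chondrosarcoma cell line, and 143B, an established osteosarcoma cell line, were each cultured detached from the substrate, either with 1 mM melatonin for 72 h or untreated, and polyadenylated RNA was sequenced. The study asked which metabolic transcripts melatonin alters in bone cancer cells that have lost anchorage. Every library came from detached cells, so attached cells enter no comparison, and the labels name no vehicle for the untreated controls. Each condition had 1 library. The spread between cultures of a line could therefore not be estimated, no test was made within a line, and the intervals given here cover counting error only.

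Cells make saturated fatty acids in the cytosol from citrate: ATP citrate lyase releases acetyl-CoA, acetyl-CoA carboxylase turns it into malonyl-CoA, and fatty acid synthase builds the chain. Elongases and desaturases of the endoplasmic reticulum then lengthen the chain and introduce unsaturated bonds. A free fatty acid is activated to acyl-CoA before it is used, and enters the mitochondrion through the carnitine palmitoyltransferases for β-oxidation or is esterified to triacylglycerol and kept in lipid droplets coated by perilipins. Tumour cells are known for high lipid synthesis, and desaturation limits the toxicity of saturated fatty acids.

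The libraries held between 15889564 and 19218343 counts, and 13198 to 14477 genes reached 1 FPKM, which are counts scaled to exonic length and to the library total. A floor of 3 counts corresponded to 0.156 to 0.189 CPM, which are counts scaled to the library total alone. The share of counts from mitochondrially encoded genes was 6.78% for untreated and 4.35% for treated JJ012 cells, and 1.63% and 2.46% for 143B cells. Of the chondrocyte markers only SOX9 reached 1 FPKM, while ACAN, COL2A1 and COL9A1 stayed at or below 0.11 FPKM in all 4 libraries. Of 6 osteoblast markers 4 reached 1 FPKM in at least 1 library, COL1A1 only in the JJ012 control and BGLAP only in 143B. SP7 and ALPL stayed at or below 0.36 FPKM, so neither line carried the full marker set of its tissue. The 4 adipocyte markers summed to 0.14 to 0.41 FPKM, and none reached 1 FPKM in any library. Leukocyte and endothelial markers each had 1 of 2 genes at 1 FPKM in at least 1 library. Epithelial markers had 2 of 2, EPCAM only in the 143B control (1.40 FPKM). In JJ012 the summed chondrocyte markers were at 16.08 FPKM in the control and 6.52 FPKM after melatonin, the osteoblast markers at 17.16 and 6.06 FPKM (COL1A1 alone at 10.92 and 0.77), the leukocyte markers at 3.44 and 2.17 FPKM, the endothelial markers at 1.92 and 0.79 FPKM and the epithelial markers at 5.61 and 6.04 FPKM. In 143B these sums were 16.74 and 13.27, 8.12 and 6.34, 0.83 and 1.20, 2.40 and 2.04, and 11.04 and 9.70 FPKM, in the same order. The part of these shifts in the results below was not tested.

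A gene was called higher or lower after melatonin when its log2 fold change, computed as log2 of the ratio of FPKM + 1, was at least 0.58 in size. Genes with at least 1 FPKM in 1 of the 2 libraries compared were considered. Because of the added 1 FPKM this measure understates the change of genes with low levels, so the ratio of CPM with its exact (Clopper-Pearson) 95% interval is given beside it. The counts are of PCR-amplified reads, which are not independent molecules. In RNA from whole cultures, fewer cells carrying a transcript and less of the transcript per cell cannot be told apart.

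In JJ012 cells, 7 of the 34 members considered were higher after melatonin, against a background of 19.6% of all genes considered, and 9 were lower, against 18.6%. The 7 were ACACA, SCD, ELOVL5, ACSL1, ACSL3, ACSL4 and CPT1A, which carboxylate acetyl-CoA, desaturate and elongate fatty acids, activate them and admit them to the mitochondrion. The 9 were FASN, ACADVL, HADH, ETFB, ECHS1, PLIN2, PLIN3, MGLL and CD36, which include 4 genes of β-oxidation and 3 of the lipid droplet and its lipolysis. The median log2 fold change of the members was -0.25, beside 0.01 for all genes considered. In 143B cells, 0 of the 34 members considered were higher (background 6.09%) and 4 were lower (background 6.65%), namely ACSS2, PLIN2, PLIN3 and FABP3, and the median was -0.03 beside 0.03 for all genes. PLIN2 and PLIN3 were called lower in both lines, but no share of all genes lower in both is given here. This overlap is therefore not read as a result about the members. The counting interval of the CPM ratio excluded a ratio of 1 for 34 of 38 members in JJ012 and for 27 of 38 in 143B. Since no share of all genes with such an interval is given, these counts do not set the members apart from other genes. When FPKM were rescaled to TPM, with an equal sum in every library, the median of all genes in JJ012 moved to 0.27, and the split of the members there became 9 higher and 6 lower, beside 34.6% and 15.7% of all genes. In 143B the CPM ratios gave 1 higher member, CPT2, and 5 lower, beside 6.29% and 5.07% of all genes.

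A change shared by both lines was tested across all genes by edgeR's quasi-likelihood test on the 4 libraries, with the line as a block, which leaves 1 residual degree of freedom. At an adjusted p (Benjamini-Hochberg) under 0.05 it called 0 of the 39 members, against 0.352% of 19301 genes, 12 of them higher and 56 lower. At an unadjusted p under 0.05 it gave 3 members, CD36, MGLL and PLIN2, against 5.90% of all genes. For PLIN2 the shared log2 change was -1.12 (edgeR adjusted p = 0.561), and for PLIN3 it was -0.68 (edgeR adjusted p = 0.991), with both genes lower in 2 of 2 lines. The value for CD36 rests on JJ012, since 143B held 0 and 2 counts.

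**Figure D1:**
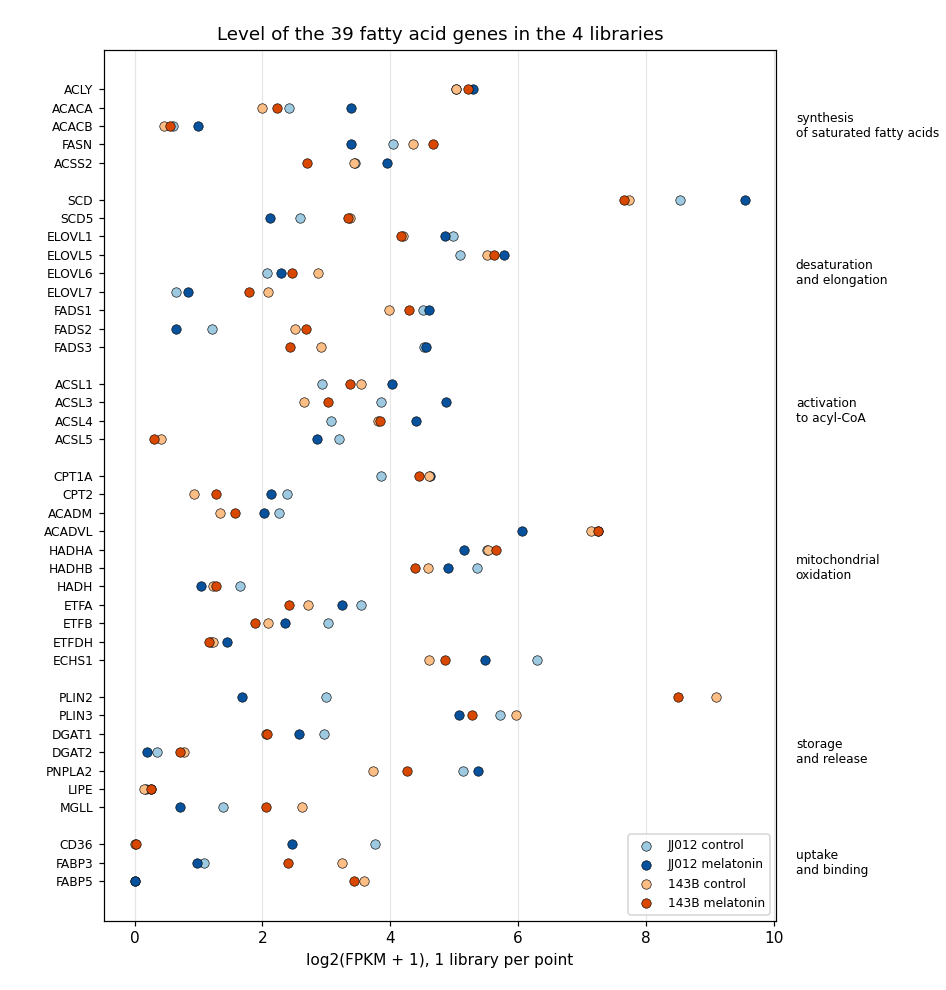
Levels of the 39 members in the 4 libraries as log2(FPKM + 1), 1 point per library, with the members in rows by their role. SCD lies far to the right of the other desaturases in every library (201.46 to 749.18 FPKM), and PLIN2 is at 544.90 FPKM in the 143B control and 6.98 FPKM in the JJ012 control.

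**Figure D2:**
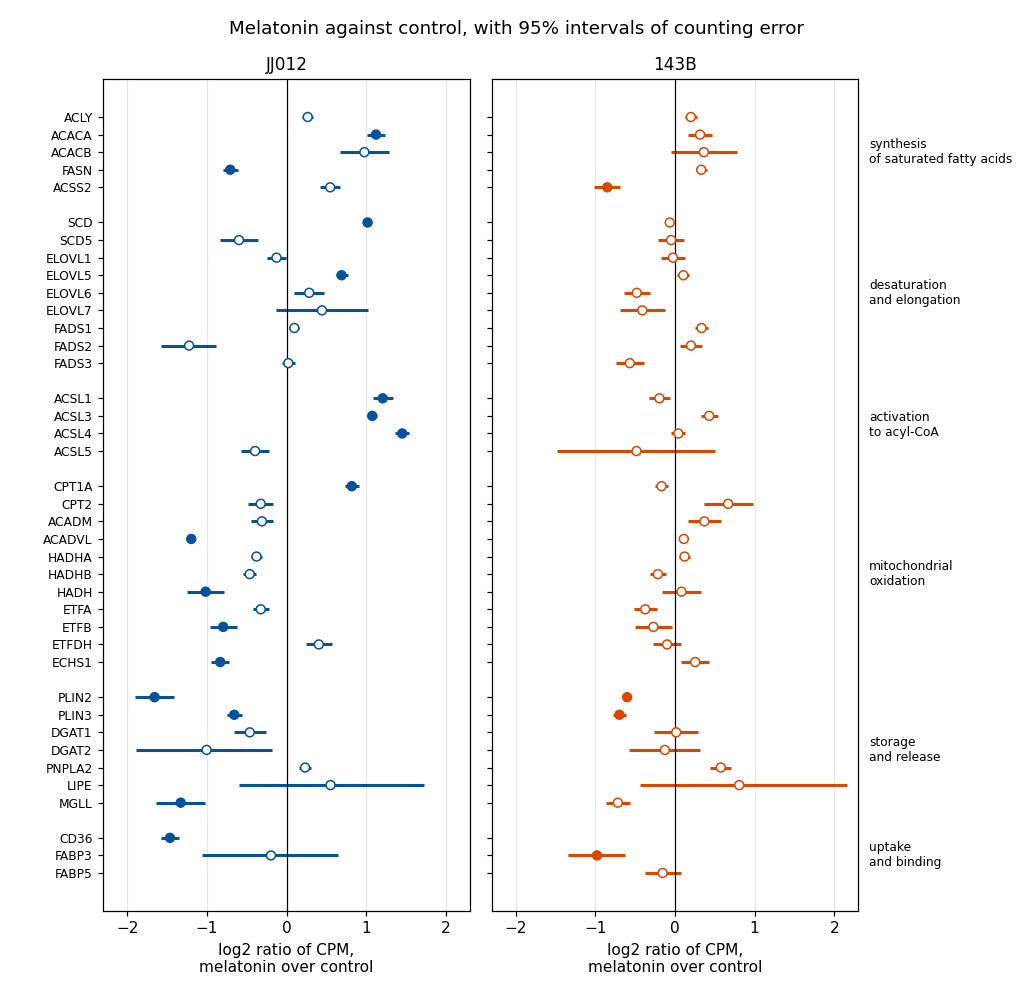
Log2 ratio of CPM, melatonin over control, of each member in JJ012 and 143B, with bars for the exact 95% counting interval and filled symbols for members past the threshold (CD36 in 143B and FABP5 in JJ012, at or under the floor of 3 counts, have no point). In JJ012 the acyl-CoA synthetases ACSL1, ACSL3 and ACSL4 lie to the right of 0 and most genes of β-oxidation to the left, while most members in 143B lie close to 0.

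The plot of levels by library shows the spread of the members over several orders of magnitude, and the plot of ratios shows how much wider the members scattered in JJ012 than in 143B. All genes did so too, with 19.6% higher and 18.6% lower in JJ012 against 6.09% and 6.65% in 143B. The sequences upstream of 5 members are given here. SCD was the most abundant member in JJ012, and ACSL4 had the largest log2 fold change there. PLIN2 and PLIN3 were called lower in both lines. HADHA, which was not called, was chosen because it shares its upstream region with the other subunit of its complex. Each is the 250 bases before a RefSeq transcription start, written 5′ to 3′ on the strand of the gene in build GRCh38.p14. They lie at chr10:100346983-100347232 on the plus strand for SCD and, on the minus strand, at chrX:109733258-109733507 for ACSL4, chr2:26244633-26244882 for HADHA, chr9:19127493-19127742 for PLIN2 and chr19:4867668-4867917 for PLIN3. Capitals mark CCAAT (the CCAAT box), CACGTG (an E-box) and GGGCGG (the GC box), read on either strand.
SCD: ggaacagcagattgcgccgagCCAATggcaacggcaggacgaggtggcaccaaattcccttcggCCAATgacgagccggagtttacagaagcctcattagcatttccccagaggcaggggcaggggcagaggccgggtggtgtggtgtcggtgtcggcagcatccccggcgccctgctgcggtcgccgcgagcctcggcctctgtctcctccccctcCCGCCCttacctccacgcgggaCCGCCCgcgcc
ACSL4: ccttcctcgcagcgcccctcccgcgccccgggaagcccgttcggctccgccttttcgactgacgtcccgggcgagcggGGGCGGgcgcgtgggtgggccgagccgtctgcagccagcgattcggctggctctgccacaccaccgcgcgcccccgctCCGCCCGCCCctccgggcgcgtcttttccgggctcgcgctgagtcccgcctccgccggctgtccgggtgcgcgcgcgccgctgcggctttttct
HADHA: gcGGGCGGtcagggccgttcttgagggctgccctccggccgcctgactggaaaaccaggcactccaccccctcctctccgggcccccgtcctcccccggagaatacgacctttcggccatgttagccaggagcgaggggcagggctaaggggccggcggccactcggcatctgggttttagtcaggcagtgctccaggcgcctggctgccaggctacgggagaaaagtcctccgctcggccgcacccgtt
PLIN2: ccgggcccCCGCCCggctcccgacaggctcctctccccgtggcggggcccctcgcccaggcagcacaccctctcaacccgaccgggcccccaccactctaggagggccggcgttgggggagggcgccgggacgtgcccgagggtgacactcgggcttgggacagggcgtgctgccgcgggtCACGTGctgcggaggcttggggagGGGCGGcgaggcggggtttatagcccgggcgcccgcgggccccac
PLIN3: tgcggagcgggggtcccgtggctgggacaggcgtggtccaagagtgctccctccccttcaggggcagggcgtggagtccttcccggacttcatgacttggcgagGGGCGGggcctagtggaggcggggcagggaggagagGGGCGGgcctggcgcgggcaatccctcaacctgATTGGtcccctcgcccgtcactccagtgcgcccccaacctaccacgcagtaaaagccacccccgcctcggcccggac

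In the windows searched, which run from 250 bases before to 50 after each start, the RefSeq tables held 33 of the 39 members. DGAT1, DGAT2, ETFDH, FABP5, FASN and MGLL had no window and were not searched. The SCD sequence carries CCAAT at 2 positions and the PLIN3 sequence at 1, and the PLIN2 sequence carries CACGTG 69 bases before the start. All the printed sequences carry the GC box, at 3 positions in ACSL4, 2 each in SCD, PLIN2 and PLIN3, and 1 in HADHA. The 33 members had 53 windows, some of them more than 1. CCAAT occurred in 21 of the 53 windows (39.6%) and in 34.6% of all 35116 windows, and GGGCGG in 33 of the 53 (62.3%) and in 45.0% of all windows. CACGTG was found in 2 of the 53, in ELOVL5 and PLIN2, and in 7.26% of all windows. The sterol regulatory element TCACNCCAC was found in 2 of the 53, in ACSL1 and PNPLA2, and in 1.13% of all windows, and the nuclear receptor motif AGGTCA in 4, in ACACA, ACSL5, ELOVL6 and PNPLA2, and in 13.8% of all windows. These matches describe the letters of the windows and no binding.

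The synthesis of saturated fatty acids moved in both directions in JJ012. ACACA, the acetyl-CoA carboxylase of the cytosol, was higher, FASN, the fatty acid synthase that uses its product, was lower, and ACLY, ATP citrate lyase, was neither. ACACA (chr17:37084992-37406836) was at 4.35 FPKM in the JJ012 control, 9.46 after melatonin, 2.97 in the 143B control and 3.70 in treated 143B cells. The treated JJ012 library stood above the other 3. The CPM ratio in JJ012 was 2.18 (95% interval 2.02 to 2.35) and the log2 fold change 0.97, against 0.24 in 143B. FASN (chr17:82078338-82098294) was at 15.45 and 9.46 FPKM in JJ012 and at 19.48 and 24.46 FPKM in 143B, control before melatonin. It was 1.63-fold lower in JJ012 (1.53 to 1.74) with a log2 fold change of -0.65, which under TPM was -0.42 and short of the threshold. In 143B its log2 fold change was 0.31. The treated JJ012 library was thus the lowest of the 4 for FASN and the highest for ACACA.

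ACSS2, the synthetase that makes acetyl-CoA from acetate, gave the only 143B call of the synthesis genes. It was at 9.86 FPKM in the JJ012 control, 14.40 after melatonin, 9.85 in the 143B control and 5.46 in treated 143B cells. The controls of the lines were at nearly equal levels and the treated libraries lay on opposite sides of them. In 143B the gene was 1.80-fold lower by CPM (1.61 to 2.02) with a log2 fold change of -0.75, while in JJ012 the log2 fold change was 0.50. ACSS2 overlaps GGT7 on the other strand. ACLY ranged from 31.53 to 38.01 FPKM over the 4 libraries, with log2 fold changes of 0.26 in JJ012 and 0.19 in 143B. ACACB, the mitochondrial carboxylase whose malonyl-CoA restrains fatty acid import, stayed between 0.37 and 0.99 FPKM and was not considered for calls.

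Of the desaturase transcripts, SCD, which encodes the stearoyl-CoA desaturase that makes oleate, had the highest level in every library. SCD (chr10:100347233-100364826) was at 370.34 FPKM in the JJ012 control, 749.18 after melatonin, 210.94 in the 143B control and 201.46 after melatonin. By FPKM it ranked 50 among all genes for untreated and 19 for treated JJ012 cells, and 119 and 120 in 143B. Its CPM ratio in JJ012 was 2.02 (2.00 to 2.05) with a log2 fold change of 1.01, and in 143B the log2 fold change was -0.07. The paralog SCD5 was at 5.03 and 3.32 FPKM in JJ012 and at 9.39 and 9.07 FPKM in 143B, with log2 fold changes of -0.48 and -0.05. The ratio of the SCD to the SCD5 level, both in FPKM, was 73.6 in the JJ012 control and 226 after melatonin, but 22.5 and 22.2 in 143B.

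Of the elongases, only ELOVL5, which elongates polyunsaturated chains, was called after melatonin, at 33.23 and 53.61 FPKM in JJ012 and at 44.86 and 48.24 FPKM in 143B. In JJ012 its level after melatonin exceeded both 143B levels, with a CPM ratio of 1.61 (1.53 to 1.70) and a log2 fold change of 0.67, against 0.10 in 143B. Its share of the summed FPKM of the 4 elongases was 49.3% for untreated and 62.2% for treated JJ012 cells, and 62.6% and 66.8% in 143B. ELOVL1, which serves very long saturated chains, had log2 fold changes of -0.12 and -0.02. ELOVL6, the elongase of palmitate, had 0.22 in JJ012 and -0.40 in 143B, and ELOVL7 stayed below 1 FPKM in both JJ012 libraries and was at 3.24 and 2.44 FPKM in 143B.

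FADS1, the delta-5 desaturase, was at 21.76 and 23.27 FPKM in JJ012 and at 14.84 and 18.69 FPKM in 143B, with no call. FADS2, the delta-6 desaturase that precedes it, was at 1.32 and 0.56 FPKM in JJ012 and at 4.69 and 5.38 FPKM in 143B. Its log2 fold change of -0.57 in JJ012 fell just short of the threshold, whereas by CPM the gene was 2.34-fold lower (1.84 to 2.98), from 267 counts to 96. The FADS1 level was 16.5 times the FADS2 level in the JJ012 control, 41.6 times after melatonin, and 3.16 and 3.47 times in 143B. FADS2 lies over FADS1 on the other strand, and since the strand setting of the counting was not given in the sources used here, their reads could not be told apart where they overlap. FADS3 was at 22.15 and 22.48 FPKM in JJ012 and at 6.53 and 4.41 FPKM in 143B, with log2 fold changes of 0.02 and -0.48.

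The acyl-CoA synthetases, which activate long-chain fatty acids, had 3 of 4 members higher in JJ012, against 19.6% of all genes, and a group median of 1.06. ACSL4, the synthetase that prefers arachidonate, was at 7.41 FPKM in the JJ012 control, 20.25 after melatonin, 12.93 in the 143B control and 13.31 after melatonin (chrX:109624244-109733403). The JJ012 control was the lowest library and the treated JJ012 library the highest. Its CPM ratio in JJ012 was 2.73 (2.57 to 2.91) and its log2 fold change of 1.34 was the largest of the members there. In 143B the log2 fold change was 0.04. ACSL1 was at 6.66 and 15.37 FPKM in JJ012 and at 10.63 and 9.28 FPKM in 143B, with a CPM ratio of 2.31 (2.12 to 2.52) and log2 fold changes of 1.10 in JJ012 and of -0.18 in 143B. ACSL3, found at lipid droplets and the endoplasmic reticulum, was at 13.48 and 28.41 FPKM in JJ012 and at 5.31 and 7.15 FPKM in 143B. Its CPM ratio was 2.11 (2.02 to 2.19) in JJ012 and 1.35 (1.25 to 1.45) in 143B, where it was not called. For both genes the treated JJ012 library was the highest of the 4.

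ACSL5, which is found at mitochondria and the endoplasmic reticulum, differed from the others in JJ012 with 8.21 and 6.24 FPKM, a log2 fold change of -0.35 and no call, and was at 0.33 and 0.24 FPKM in 143B. It overlaps ZDHHC6 on the other strand. The summed FPKM of the 4 synthetases was 35.76 for untreated and 70.27 for treated JJ012 cells, and 29.20 and 29.98 in 143B. ACSL5 made up 23.0% of the sum in the JJ012 control and 8.88% after melatonin, while the share of ACSL4 was 20.7% and 28.8%. In 143B the share of ACSL4 was 44.3% and 44.4%.

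**Figure D3:**
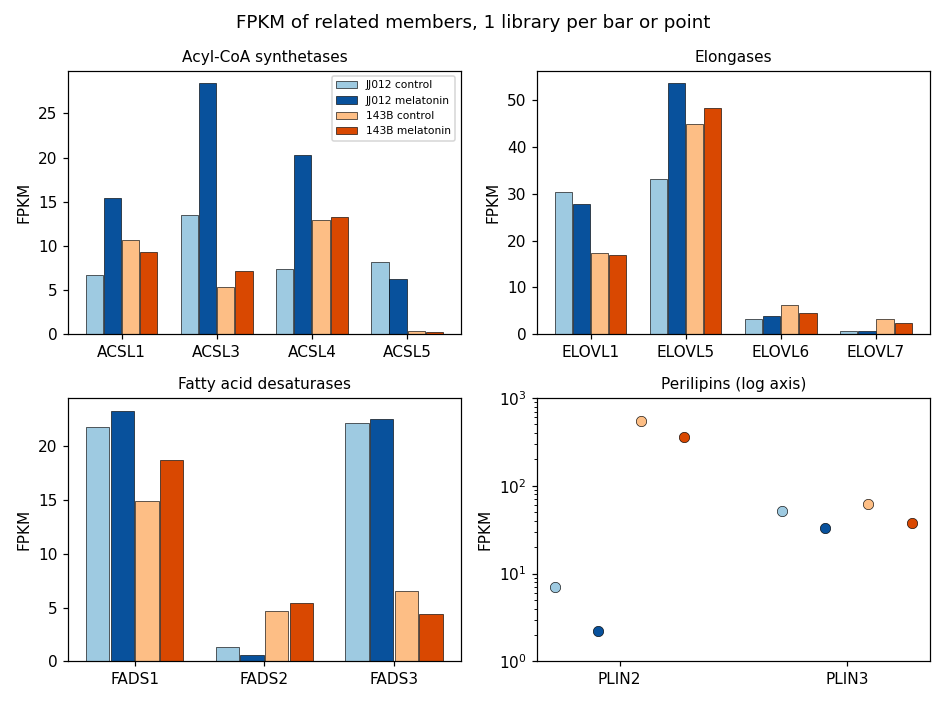
FPKM of the acyl-CoA synthetases, elongases and FADS desaturases in each library as bars from 0, and of the perilipins PLIN2 and PLIN3 as points on a log axis. ACSL1, ACSL3 and ACSL4 stand highest in the treated JJ012 library, and PLIN2 lies between 2.21 and 6.98 FPKM in JJ012 and between 359.18 and 544.90 FPKM in 143B.

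The plot of family members by library shows ACSL1, ACSL3 and ACSL4, but not ACSL5, at their highest in the treated JJ012 library. CPT1A, the carnitine palmitoyltransferase of the outer mitochondrial membrane and the controlling step of import, was the only higher member of mitochondrial oxidation. It was at 13.39 and 23.61 FPKM in JJ012 and at 23.38 and 20.79 FPKM in 143B. The JJ012 control was the lowest library and the treated JJ012 library reached the level of the 143B control. The CPM ratio in JJ012 was 1.76 (1.66 to 1.88) with a log2 fold change of 0.77, against -0.16 in 143B. CPT2, its partner at the inner membrane, was at 4.24 and 3.39 FPKM in JJ012 and at 0.90 and 1.43 FPKM in 143B, and was not called. In 143B its CPM ratio was 1.59 (1.29 to 1.96), from 144 to 247 counts. CPT2 overlaps CZIB on the other strand.

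Of the 11 members of mitochondrial oxidation, 4 were lower in JJ012, against 18.6% of all genes, and 0 in 143B, against 6.65%, with group medians of -0.37 and 0.05. Under TPM, ECHS1 and ETFB of these 4 fell short of the threshold in JJ012. ACADVL (chr17:7217125-7225266), the very long chain acyl-CoA dehydrogenase that starts β-oxidation, was at 151.11 FPKM in the JJ012 control, 65.91 after melatonin, 139.24 in the 143B control and 150.32 in treated 143B cells. The treated JJ012 library was lower than the other 3, which lay close together. The gene was 2.29-fold lower by CPM (2.22 to 2.37) in JJ012, where its log2 fold change was -1.18, against 0.11 in 143B. It overlaps DLG4 on the other strand. ECHS1, the hydratase of short chains, was at 77.87 and 43.70 FPKM in JJ012 and at 23.36 and 27.83 FPKM in 143B. It was 1.78-fold lower by CPM in JJ012 (1.65 to 1.93), with a log2 fold change of -0.82, which under TPM was -0.56 and short of the threshold. Both JJ012 levels stayed above both 143B levels.

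HADH, the dehydrogenase of medium and short hydroxyacyl chains, was at 2.14 and 1.06 FPKM in JJ012 and at 1.33 and 1.41 FPKM in 143B. It was 2.02-fold lower by CPM in JJ012 (1.73 to 2.38), with 530 counts in the control and 220 after melatonin, and its log2 fold changes were -0.61 and 0.05. ETFB, a subunit of the flavoprotein that takes electrons from the acyl-CoA dehydrogenases, was at 7.14 and 4.11 FPKM in JJ012 and at 3.23 and 2.67 FPKM in 143B. It was 1.74-fold lower in JJ012 (1.55 to 1.95) with a log2 fold change of -0.67 there, -0.50 under TPM, and of -0.20 in 143B. The other subunit, ETFA, had log2 fold changes of -0.29 and -0.31 with no call in either line. ETFDH, which passes the electrons on to ubiquinone, had 0.25 and -0.06.

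HADHA and HADHB encode the subunits of the mitochondrial trifunctional protein and lie head to head on chromosome 2, with RefSeq starts at 26244632 and 26244939, 307 bases apart, so that the HADHA sequence shown above also lies upstream of HADHB. HADHA was at 44.69 and 34.40 FPKM in JJ012 and at 45.15 and 49.06 FPKM in 143B, and HADHB at 39.84 and 28.91 FPKM in JJ012 and at 23.06 and 19.86 FPKM in 143B. Neither was called. In JJ012 their log2 fold changes were close, at -0.37 and -0.45, while in 143B they had opposite signs, 0.12 and -0.21. The ratio of the HADHA to the HADHB level was 1.12 and 1.19 in JJ012 and 1.96 and 2.47 in 143B. The deposited gene models of the pair overlap on opposite strands. ACADM, the medium chain dehydrogenase, had log2 fold changes of -0.24 and 0.23.

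PLIN2 and PLIN3 were the members called lower in both lines. MGLL, ETFA, ETFB and HADHB were also lower by CPM beyond counting error in both lines, without a call in both. PLIN2 (chr9:19108375-19149290), the perilipin that coats droplets in most cells and is degraded when not bound to them, was at 6.98 FPKM in the JJ012 control, 2.21 after melatonin, 544.90 in the 143B control and 359.18 after melatonin. Both 143B libraries lay far above both JJ012 libraries, and within each line the treated library was the lower. In JJ012 it was 3.15-fold lower by CPM (2.67 to 3.74, from 672 to 179 counts) with a log2 fold change of -1.31, the lowest of the members there. In 143B it was 1.52-fold lower (1.50 to 1.54, from 43386 to 30894 counts) with a log2 fold change of -0.60, close to the threshold. By FPKM PLIN2 ranked 30 among all genes in the 143B control and 70 in treated 143B cells. The RefSeq start used for the sequence above lies inside the longer deposited gene model.

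PLIN3, which binds nascent droplets, was at 51.69 and 32.77 FPKM in JJ012 and at 61.42 and 37.88 FPKM in 143B. In both lines the treated library was the lower, and the levels of the 2 lines overlapped. By CPM it was 1.58-fold lower in JJ012 (1.48 to 1.68) and 1.62-fold lower in 143B (1.53 to 1.72), with log2 fold changes of -0.64 and -0.68. In JJ012 the value under TPM was -0.38 and after removing the trend with exonic length -0.42, both short of the threshold. PLIN2 made up 11.9% of the summed PLIN2 and PLIN3 level for untreated and 6.32% for treated JJ012 cells, and 89.9% and 90.5% in 143B.

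Among the 5 members of triacylglycerol synthesis and lipolysis, only MGLL, the monoacylglycerol lipase, was called in JJ012. MGLL was at 1.61 and 0.64 FPKM in JJ012 and at 5.17 and 3.15 FPKM in 143B, with the treated library lower in each line. It was 2.51-fold lower by CPM in JJ012 (2.03 to 3.13) and 1.65-fold lower in 143B (1.48 to 1.83), with log2 fold changes of -0.67 and -0.57, the latter just short of the threshold. MGLL overlaps SEC61A1 on the other strand. PNPLA2, the adipose triglyceride lipase that opens triacylglycerol breakdown, was at 34.35 and 40.34 FPKM in JJ012 and at 12.26 and 18.25 FPKM in 143B. Its CPM ratio was 1.17 (1.11 to 1.24) in JJ012 and 1.49 (1.36 to 1.63) in 143B, where its log2 fold change of 0.54 was the largest of the members but no call. LIPE, the hormone-sensitive lipase, stayed between 0.11 and 0.19 FPKM with 9 to 17 counts. DGAT1, which esterifies diacylglycerol, had log2 fold changes of -0.39 and 0.01, and DGAT2 stayed at or below 0.70 FPKM in all 4 libraries.

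Of the uptake and binding members, CD36 and FABP5 were each at or under the floor of 3 counts in both libraries of 1 line, and FABP3 was above it in both lines. CD36 (chr7:80369575-80679277), the scavenger receptor that takes up long-chain fatty acids, was at 12.52 FPKM in the JJ012 control (2617 counts) and 4.54 FPKM after melatonin (797 counts), and held 0 and 2 counts in 143B. It was 2.76-fold lower after melatonin in JJ012 by CPM (2.55 to 2.99), with a log2 fold change of -1.29, and was not considered in 143B. FABP3, the heart-type fatty acid binding protein, was at 1.12 and 0.97 FPKM in JJ012 (30 and 22 counts) and at 8.46 and 4.29 FPKM in 143B (188 and 103 counts). In 143B it was 1.97-fold lower by CPM (1.54 to 2.53) with a log2 fold change of -0.84, whereas in JJ012 the log2 fold change was -0.11 and the interval of the ratio included 1. FABP5, the epidermal binding protein, had 0 counts in both JJ012 libraries, where the floor is 3 counts, and 332 and 322 counts in 143B, with 10.97 and 9.85 FPKM. FABP5 has many processed pseudogenes, and 15 such rows of the table summed to 4 and 8 counts in JJ012 and 64 and 63 in 143B, so the counts of the gene and its copies are uncertain.

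Summed per role, the members of saturated fatty acid synthesis came to 220 and 312 TPM in JJ012 and to 298 and 314 TPM in 143B, and those of desaturation and elongation came to 1740 TPM in the JJ012 control, 3819 TPM in the treated JJ012 library and 1477 and 1389 TPM in 143B. The acyl-CoA synthetases summed to 127 and 303 TPM in JJ012 and to 136 and 134 in 143B. Mitochondrial oxidation summed to 1270 and 942 TPM in JJ012, against 1245 and 1254 in 143B. SCD was the largest part of the desaturation sum and ACADVL that of the oxidation sum. Storage and release summed to 363 and 350 TPM in JJ012 and to 2915 and 1886 in 143B, and uptake and binding to 48.6 and 23.8 TPM in JJ012 and to 90.2 and 63.2 in 143B. Single genes made up most of 2 of these sums, PLIN2 in 143B storage (2531 and 1603 TPM) and CD36 in JJ012 uptake (44.6 and 19.6 TPM). On the CPM scale the ratio for storage and release was 0.798 (0.769 to 0.828) in JJ012, below the ratio of 0.965 in TPM, and 0.671 (0.662 to 0.680) in 143B. The other roles in JJ012 also had lower ratios by CPM than by TPM. These were 1.18 against 1.42 for synthesis, 1.80 against 2.19 for desaturation and elongation and 2.13 against 2.38 for the synthetases. For mitochondrial oxidation the ratio was 0.658 against 0.742, and for uptake and binding 0.368 against 0.489.

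A call in JJ012 without one in 143B does not show a different response, so the difference of the log2 CPM ratios, JJ012 minus 143B, was computed with its 95% counting interval. A set of 7 members moved in opposite directions with intervals apart from 0 in both lines and at least 1 call. The share of all genes under the same rule is not given here, so the count is not read as a trait of the members. ACSL1 differed by 1.40 (1.23 to 1.58), ACSS2 by 1.40 (1.20 to 1.60), SCD by 1.08 (1.05 to 1.12) and CPT1A by 0.99 (0.87 to 1.11), all with the higher ratio in JJ012. ACADVL differed by -1.31 (-1.37 to -1.25), ECHS1 by -1.09 (-1.29 to -0.88) and FASN by -1.04 (-1.15 to -0.92), with the lower ratio in JJ012. ACSL4 differed by 1.41 (1.29 to 1.53) although its 143B ratio was near 1. PLIN2 differed by -1.06 (-1.29 to -0.82), and PLIN3 by 0.04 (-0.09 to 0.17), the interval of which included 0. Differences between cultures of a line enter none of these intervals.

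The members were also compared between the lines before treatment. At a threshold of 1 in the log2 fold change, 7 of 36 members considered were higher in the JJ012 control than in the 143B control (background 28.7%) and 6 were lower (background 18.5%), and the median of 0.06 lay below that of all genes, 0.29. After centring on the median of all genes the split was 6 higher and 10 lower, against 19.6% and 24.4% of all genes, and under TPM it was 6 and 11, against 28.1% and 28.6%. CD36 was at least 721-fold higher in JJ012 and FABP5 at least 134-fold lower, both set against a floor of 3 counts per library. PLIN2 was 78.1-fold lower in JJ012 by CPM (72.4 to 84.4). ACSL5 was 24.5-fold higher there (16.1 to 39.4), on 653 against 22 counts. FADS3 (3.39-fold), ECHS1 (3.33-fold), CPT2 (4.73-fold), PNPLA2 (2.80-fold) and ACSL3 (2.54-fold) were also higher in JJ012. ELOVL7 (5.68-fold), FADS2 (3.56-fold), MGLL (3.21-fold) and FABP3 (7.58-fold) were also lower. The interval of the ratio included 1 for ACLY, ACSS2, HADHA, ETFDH and LIPE.

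Other genes of the pathway were read from 6 lists of 119 genes in all. In JJ012, 94 were considered, of which 16 were higher and 18 lower (17.0% and 19.1%, against 19.6% and 18.6% of all genes) with a median of -0.14. In 143B 88 were considered, of which 0 were higher and 2 lower (against 6.09% and 6.65% of all genes) with a median of 0.06. The counts of each list below are to be read against the same shares of all genes. The regulators had 5 higher and 3 lower of 22 in JJ012. PPARGC1A, the coactivator of mitochondrial and oxidative genes, was at 0.57 and 3.65 FPKM in JJ012 and at 0.20 and 0.40 FPKM in 143B, and its log2 fold change was 1.57. PPARA, the nuclear receptor of fatty acid oxidation genes, was at 7.28 and 15.72 FPKM in JJ012 and 6.77 and 6.41 in 143B, with 1.01. PRKAA2, a catalytic subunit of AMP-activated protein kinase, had 1.09. SREBF1, the transcription factor of fatty acid synthesis genes, was at 13.55 and 13.56 FPKM in JJ012 and at 6.75 and 6.80 FPKM in 143B. PPARG, the receptor of adipocyte genes, was at 8.89 and 4.63 FPKM in 143B with a log2 fold change of -0.81, and at or below 0.04 FPKM in JJ012.

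Further synthesis and elongation genes had 1 higher and 2 lower of 13 in JJ012. TECR, the reductase that closes the elongation cycle, had a log2 fold change of -0.91, CYB5R3, a cytochrome b5 reductase, -0.67, and HACD2, a dehydratase of the cycle, 0.58. CYB5R3 at -0.41 under TPM, and HACD2 at 0.57 after centring and 0.52 after removal of the length trend, fell short of the threshold. Of the further activation and transport genes, 2 of 13 were higher and 4 lower. DBI, the acyl-CoA binding protein, was at 69.61 FPKM in the JJ012 control and 22.36 after melatonin, 3.11-fold lower by CPM (2.89 to 3.35), and at 13.54 and 11.83 FPKM in 143B. ACBD3, a Golgi protein with an acyl-CoA binding domain, had 1.02, and FABP6, the ileal bile acid binding protein, -1.04.

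Further mitochondrial oxidation had 1 higher (ACAD11, an acyl-CoA dehydrogenase, 0.86) and 3 lower of 14 in JJ012, among them ACAA2, a thiolase, at -0.66 and DECR1, which handles unsaturated chains, at -0.63. Peroxisomal oxidation had 0 higher and 3 lower of 13, among them the acyl-CoA oxidases ACOX3 at -0.65 and ACOX2 at -0.63. Short of the threshold were DECR1 and ACOX3 under TPM, at -0.41 and -0.48, and ACOX3 and ACOX2 after removal of the length trend, at -0.54 and -0.51. In 143B, PDK4, the kinase that restrains pyruvate dehydrogenase, was lower at -0.79. Further storage and lipolysis genes had 7 higher and 3 lower of 19 in JJ012. AGPAT5, an acyltransferase of glycerolipid synthesis, was at 26.42 FPKM for untreated and 162.24 for treated JJ012 cells and at 10.59 and 10.86 FPKM in 143B, and in JJ012 its log2 fold change was 2.57 and its CPM ratio 6.14 (5.91 to 6.38). AGPAT2, another acyltransferase of this step, had -1.23. PLIN4 was at 2.12 and 7.11 FPKM in JJ012 with a log2 fold change of 1.38, opposite in direction to PLIN2 and PLIN3.

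Over all genes considered, the log2 fold change in JJ012 moved with exonic length (Spearman's rho 0.24 across 15794 genes of the same pair of libraries), and rho was -0.01 across 14135 genes in 143B. Across the 34 members considered, rho was 0.16 in JJ012 and 0.25 in 143B, and genes are not independent replicates. The 7 higher members in JJ012 had a median exonic length of 6571 bases and the 9 lower members one of 6496 bases. After removal of the running median over length, all 7 higher members and 7 of the 9 lower ones stayed past the threshold, all except ECHS1 and PLIN3, and FADS2 and ETFA passed it.

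**Figure D4:**
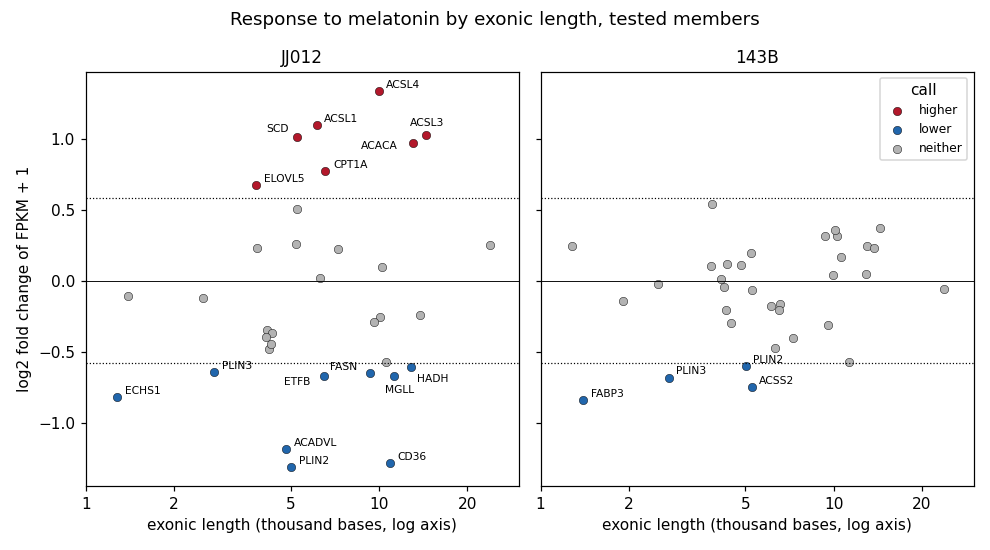
Log2 fold change of FPKM + 1 after melatonin against exonic length in kilobases on a log axis, 1 point per member considered, for JJ012 and 143B, with dotted lines at the threshold of 0.58. In JJ012 the higher members have 3813 to 14436 bases and the lower members 1277 to 12881 bases, and the shortest called ones, ECHS1 and PLIN3, are lower.

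The plot of fold change by exonic length sets the called members of both lines on 1 scale. In 143B the 4 lower members had exonic lengths of 1398 to 5248 bases.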

How the data were processed

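The authors sequenced polyadenylated RNA of JJ012 and 143B cells in suspension, as untreated controls and after 1 mM melatonin for 72 h, with 1 library per condition. The submitters' processing notes name cutadapt 1.9.1, HISAT2 2.2.1, HTSeq 0.6.1, DESeq2 and the build hg38. The strand setting and the annotation release are not given in the sources used here. The authors deposited raw counts per gene, which were used as they stand. The authors also deposited FPKM, which recompute from these counts, the exonic length and the library total within 0.005. The suffix T of a column name was taken to mean melatonin treatment, and the table held 0 sample columns without a sample.

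Genes with at least 1 FPKM in 1 of the 2 libraries compared were considered, with a pseudocount of 1 FPKM. Members past a log2 fold change of 0.58 (melatonin, the fold used in the study) or 1 (JJ012 against 143B control) were called. Without replicates no test was made within a line. After the data had been seen, edgeR 4.0.16 in R 4.3.3 (quasi-likelihood test on the deposited counts, TMM, filterByExpr, line as a block, 1 residual degree of freedom, Benjamini-Hochberg adjustment) was added for a change shared by both lines. Ratios of CPM carry exact Clopper-Pearson 95% intervals, and differences between the lines carry intervals from the variances of the log counts. Intervals and the floor of 3 counts cover counting error only. The scripts were tested on simulated data. Tools were pandas 2.3.3 and scipy 1.17.1 with numpy 2.4.6 in Python 3.11.15, and figures were drawn with matplotlib 3.10.9. Alternatives were a pseudocount of 0.1 FPKM, TPM, CPM, centring on the median of all genes, removal of the running median over exonic length (windows of 501 genes), no filter, a filter of 5 FPKM, and thresholds of 1 and 2.

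Every member was named, with values in every library for those past a threshold after melatonin or with few counts, and from the 6 pathway lists up to 3 genes per list and line with the largest change past the threshold. SREBF1 was named after its values were seen. A gene of the pathway lists that this rule selects is not reported here. The members, roles and lists were chosen with earlier results of these data known. Promoter sequences came from RefSeq (GRCh38.p14), matched by symbol for 33 members. All 39 deposited gene positions overlapped their genes in GENCODE 29, of which 13 had identical ends, so positions are those of the deposited table.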

Additional observations from a re-analysis of the deposited data

Results flagged for a closer look

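A set of 7 members were picked out because the 2 lines moved in opposite directions, each beyond counting error, with a call in at least 1 line. As JJ012 minus 143B in the log2 ratio of CPM (melatonin over control), the differences were 1.40 for ACSL1, 1.40 for ACSS2, 1.08 for SCD, 0.99 for CPT1A, -1.31 for ACADVL, -1.09 for ECHS1 and -1.04 for FASN. SCD, ACSL1 and CPT1A were called higher in JJ012, ACADVL, ECHS1 and FASN were called lower there, and ACSS2 was called lower in 143B. The genes called in JJ012 were not called in 143B, where their CPM ratios ran from 0.873 for ACSL1 to 1.26 for FASN, with SCD at 0.955. Each line had 1 library per condition, so the difference was not tested against the spread between cultures. The share of all genes that meet the rule for the 7 is not given here, so their number is not read as a trait of the members.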

How the results depend on the processing

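Among the values of single members, 335 alternatives lay within counting error of the reported value, 175 moved beyond it and 0 reversed a called direction. With the threshold raised to 1, JJ012 had 4 higher and 3 lower members and 143B had 0 lower. With the threshold raised to 2, the JJ012 control had 2 higher and 3 lower members against the 143B control. The shares of all genes at these raised thresholds are not given here, so these counts are not read as a trait of the members. CPT2 became higher in 143B with a pseudocount of 0.1 FPKM and with CPM, against 0 otherwise (1 each). Between the controls, 11 members were lower in JJ012 under TPM and 10 after centring, against 6. All 7 higher members in JJ012, the 4 lower members in 143B, and ACADVL, HADH, PLIN2, MGLL and CD36 in JJ012 stayed past the threshold under TPM, CPM, centring and removal of the length trend. FASN, ETFB, ECHS1 and PLIN3 in JJ012 did not under TPM. The cause was not tested.

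With the line as a block, a pairing of the control and treated library of each line chosen after seeing the data, edgeR called 0 members at an adjusted p under 0.05 and 3 at an unadjusted p under 0.05, the same with DESeq2 size factors and with no filter. Leaving out a library was not run, since each condition had 1. Members with few counts, such as LIPE, FABP3 in JJ012 and ACSL5 in 143B, had wide counting intervals, and variation between cultures remains unmeasured for all members.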
